A study of Mus musculus with 144 samples.

Results

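The switching genes described here are 6 genes of the liver: Pnkd, Slc17a3, Nit2, Errfi1, Paqr9 and Elovl3. They were chosen because, in total RNA of wild-type mouse liver, the share of transcripts ending at 1 of their polyadenylation sites moved over the day. Usage over time in wild-type total RNA therefore chose the genes and is given here as a description with no test. All sites of the authors' filtered list that lie in a gene, on its strand and up to 1000 bp past its end, were taken. This gave 24 sites of 29199 for 6 of the 9034 genes with assigned sites, and 19 of the 24 held at least 5% of the gene's site counts in at least 1 series. The number of sites per gene was 2 in Slc17a3 and Nit2, 3 in Pnkd and Elovl3, and 7 in Errfi1 and Paqr9.

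The study measured liver RNA by QuantSeq, a 3′ mRNA sequencing method that reads the end of each transcript beside its poly(A) tail. It holds 4 series of 36 libraries. In wild-type mice these are total RNA, RNA of nuclei and RNA of polysomes (messenger RNA carrying several ribosomes), and the fourth is total RNA labelled Bmal1-/-. All mice were labelled male C57BL/6J and fed ad libitum, under light and dark phases of 12 h each. Each series has 6 libraries at each of ZT2, 6, 10, 14, 18 and 22, where ZT is the time in hours after lights on. The age of the mice and the deleted part of Bmal1 are not given in the sources used here. Nothing in the labels says whether libraries of a group, or the nuclear, polysomal and total libraries, came from separate animals. P-values below therefore measure the spread between these libraries. In RNA of a whole tissue, fewer cells of a type and less RNA per cell cannot be told apart.

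Cleavage and polyadenylation sets the 3′ end of a messenger RNA. The complexes CPSF, CSTF and CFI recognise the signal and cut the nascent transcript, and a poly(A) polymerase then adds the tail. A gene with several sites can yield transcripts that differ only in the untranslated end, or, when a site lies within the gene body, short transcripts that lack later exons. The circadian clock is driven by BMAL1 (gene Arntl), which with CLOCK activates Per, Cry and Nr1d1 genes, and in liver it imposes daily rhythms on the transcription of many metabolic genes.

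Gene table totals ran from 5316601 to 9831142 counts in wild-type total RNA, from 1662449 to 6620128 in nuclear, from 2578048 to 13068044 in polysomal and from 4379549 to 14281894 in Bmal1-/- libraries. Arntl, the gene of BMAL1, averaged 6.73 CPM ± 5.40 over the wild-type total libraries, against 11.5 CPM ± 2.98 over those labelled Bmal1-/- (SD, n = 36 each). It was higher, not lower, in the latter (log2 difference 1.24, SE 0.12, adjusted p = 3.52e-13, edgeR quasi-likelihood test). Since 3′ reads need not cover the deleted part, this level checks nothing about the label. Xist, an RNA of female cells, exceeded 100 CPM in 4 libraries, all at ZT22: total RNA replicate 5, nuclear replicate 5, polysomal replicate 1 and Bmal1-/- replicate 6. In wild-type total RNA, replicate 4 of ZT2 stood apart, with a correlation to the other libraries of 0.843 against a median of 0.956 and a next lowest of 0.924. Hepatocyte markers were present in all libraries, with all 5 genes detected and sums of 44391 to 102752 CPM in wild-type total RNA. The summed level of 4 cholangiocyte markers was 16.0 to 66.6 CPM in wild-type total RNA and 45.5 to 135 CPM in Bmal1-/- total RNA. Of the 4, 2 reached a mean of 1 CPM in each of these series. Median sums in wild-type and Bmal1-/- total RNA were 263 and 327 CPM for stellate cell markers, and 1215 and 792 CPM for blood markers. The airway gene Scgb1a1 reached 654 CPM in polysomal RNA and exceeded 100 CPM in 4 polysomal libraries. The part of these differences in the results below was not tested, apart from the results given without the ZT2 replicate and without the Xist libraries.

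For each gene, usage is the count at a site as a percentage of the counts at all filtered sites of that gene. The switching site of a gene is the site whose 6 time-point means spread most in wild-type total RNA, and its partner is the site that moved most nearly opposite to it. The sites fall into 2 layouts. In Pnkd, Slc17a3 and Paqr9 the 2 sites lay 66236, 9134 and 5881 bp apart, so that the earlier one lies far inside the gene span. In Errfi1, Elovl3 and Nit2 they lay 468, 380 and 209 bp apart near the gene's end. The later of the 2 sites gained usage at night or early morning in Pnkd, Slc17a3, Nit2 and Elovl3. In Errfi1 and Paqr9 the earlier one did. Without the ZT2 library that stood apart, the highest mean usage of the switching site moved from ZT2 to ZT6 in Nit2. It moved from ZT2 to ZT18 in Slc17a3 and to ZT22 in Paqr9. In Pnkd the switching site is the earlier one, which gained usage around the end of the light phase. All coordinates are mm10 and 1-based.

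Pnkd has the widest pair. Its switching site is chr1:74287198-74287456 on the plus strand, 2857 bp after the gene start at its far end, and its partner is chr1:74353516-74353692, at the annotated end. The RefSeq promoter table (GRCm38.p6) lists 1 start for Pnkd, at 74332610. That start lies 45154 bp after the switching site and 20906 bp before the partner site, so transcripts from it can reach the partner and not the switching site. The 250 bases before this start, chr1:74332360-74332609, are shown because they precede a start that lies between the 2 sites. Capitals mark CG dinucleotides.
Pnkd: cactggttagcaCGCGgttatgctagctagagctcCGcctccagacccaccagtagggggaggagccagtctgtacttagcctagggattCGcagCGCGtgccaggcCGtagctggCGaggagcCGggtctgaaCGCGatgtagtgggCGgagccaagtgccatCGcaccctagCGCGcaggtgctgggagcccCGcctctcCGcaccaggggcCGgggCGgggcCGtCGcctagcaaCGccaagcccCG
The stretch holds 23 CG dinucleotides and is 68.4% G or C, against medians of 6 and 52.4% over 32851 RefSeq promoters, of which 13.3% held at least as many CG. The E-box CACGTG bound by BMAL1 and CLOCK, the D-box TTANGTAA and the ROR element (bound by ROR and REV-ERB receptors) were searched on both strands. They occurred in 7.15%, 2.32% and 0.700% of those promoters, counting 300 bases each. None of them was found in the 5 windows available for the switching genes, which are 1 each for Pnkd, Slc17a3 and Nit2 and 2 for Errfi1.

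**Figure D1:**
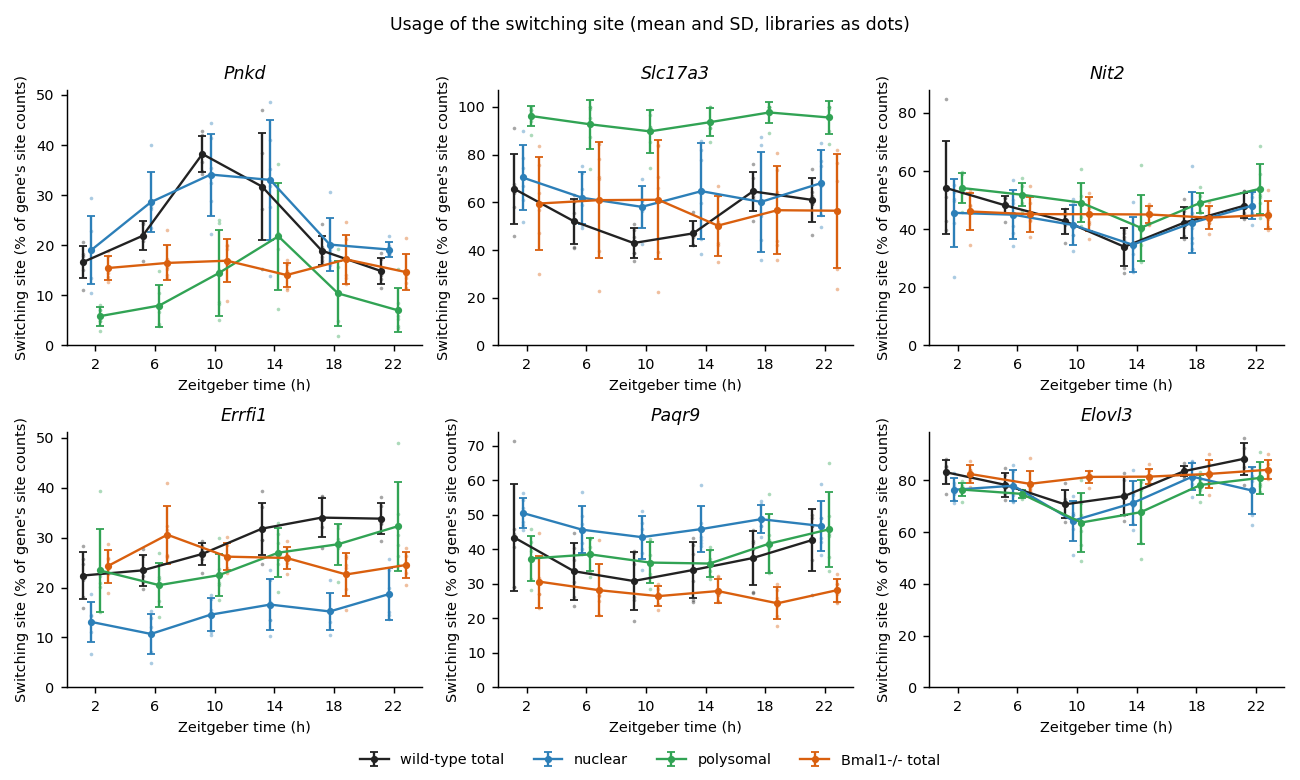
Usage of the switching site of each gene (percent of the gene's site counts, y axis) against zeitgeber time (h, x axis) in the 4 series. Lines join means with SD bars, dots are libraries, and there are 6 libraries per time except polysomal Elovl3 at ZT22 with 5. The Pnkd site rises from 14.8% at ZT22 to 38.2% at ZT10 in wild-type total RNA and stays between 14.1% and 17.2% in Bmal1-/- libraries.

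PNKD is named after the human movement disorder paroxysmal nonkinesigenic dyskinesia, which its mutations cause. In wild-type total RNA at ZT10 its early site took 34.2% (lowest), 37.7% (median) and 42.9% (highest) of the gene's site counts, and at ZT22 11.4%, 14.3% and 18.5%. All ZT10 libraries lay above all ZT22 libraries, and the means were 38.2% ± 3.69 and 14.8% ± 2.63 (SD, n = 6 each). The level of the early site itself was nearly flat, with means of 16.0 to 17.9 CPM over the 6 times, and its values overlapped at all times. The distal partner, in contrast, fell from 87.8 CPM ± 16.4 at ZT22 to 26.7 CPM ± 5.31 at ZT10, 3.29-fold, and those groups did not overlap (22.4 to 36.5 against 71.9 to 116 CPM). The daily change in Pnkd usage thus coincided with a change in the level of the distal site, at a level of the early site that varied little.

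Pnkd was the switching gene whose usage change was also called in another series. That series, nuclear RNA, may not be independent of the libraries that chose the genes. Deviations of nuclear libraries from their group means correlated with those of same-numbered total libraries at a mean of 0.35, against -0.13 for polysomal RNA. The polysomal value does not show independence, since polysomal numbers need not match. The ZT22 library with Xist was replicate 5 in total and nuclear RNA and replicate 1 in polysomal RNA. In nuclear RNA the early site took 22.2%, 34.0% and 44.4% (lowest, median, highest) at ZT10 and 18.03%, 18.4% and 21.9% at ZT22, so these 2 times did not overlap. The lowest nuclear mean, 19.0%, was however at ZT2, whose range overlapped with that of ZT10. The highest mean was at ZT14 in replicates 4 to 6 and at ZT10 in all nuclear libraries. A 24-h cosine fit gave a log2 peak-to-trough of 0.98, a 1.97-fold change, with a peak at ZT10.5 and adjusted p = 0.0327 (edgeR quasi-likelihood test, Benjamini-Hochberg over 8092 sites). The call did not hold with fewer libraries: adjusted p was 0.656 in replicates 1 to 3, 1 in replicates 4 to 6 and 0.0675 without the nuclear library with Xist. In polysomal RNA the site took a median of 20.9% at ZT14 (7.19% to 36.2%) and 6.01% at ZT2 (2.96% to 8.04%), and the 2 ranges overlapped. The fit had a log2 peak-to-trough of 1.83, a peak at ZT13.1 and adjusted p = 0.0919, which misses the threshold of 0.05. It passed without the polysomal library with Xist (adjusted p = 0.0361), with replicate number as a block (0.00503) and with DESeq2 (0.00227).

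In the libraries labelled Bmal1-/- the Pnkd early site took 14.1% to 17.2% at all 6 times. At ZT10 its lowest, median and highest values were 8.77%, 18.2% and 20.1%, below all 6 wild-type libraries at that time. The partner stayed at 83.3 to 91.9 CPM, close to its nightly wild-type maximum, and gene level means were 109 to 117 CPM, whereas the wild-type gene level ran from 47.3 CPM at ZT10 to 112 CPM at ZT22. Fitted along the wild-type peak time, usage in Bmal1-/- libraries had a log2 peak-to-trough of 0.07 with a 95% interval of -0.24 to 0.38. Averaged over the day, usage of the early site was lower than in wild-type total RNA (15.8% against 23.7%, log2 difference -0.50, SE 0.07, adjusted p = 4.87e-07, edgeR quasi-likelihood test) and lower at 6 of 6 times. The wild-type average includes the rise at ZT10 that chose the gene. The gene level was higher (113 against 81.7 CPM, log2 difference 0.43, adjusted p = 2.77e-12, edgeR quasi-likelihood test), also at 6 of 6 times. Polysomal RNA used the early site less than total RNA at 6 of 6 times (11.2% against 23.7%, log2 difference -1.14, SE 0.14, adjusted p = 9.45e-11, edgeR quasi-likelihood test), while the nuclear mean of 25.7% did not differ past the threshold (adjusted p = 0.0729).

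**Figure D2:**
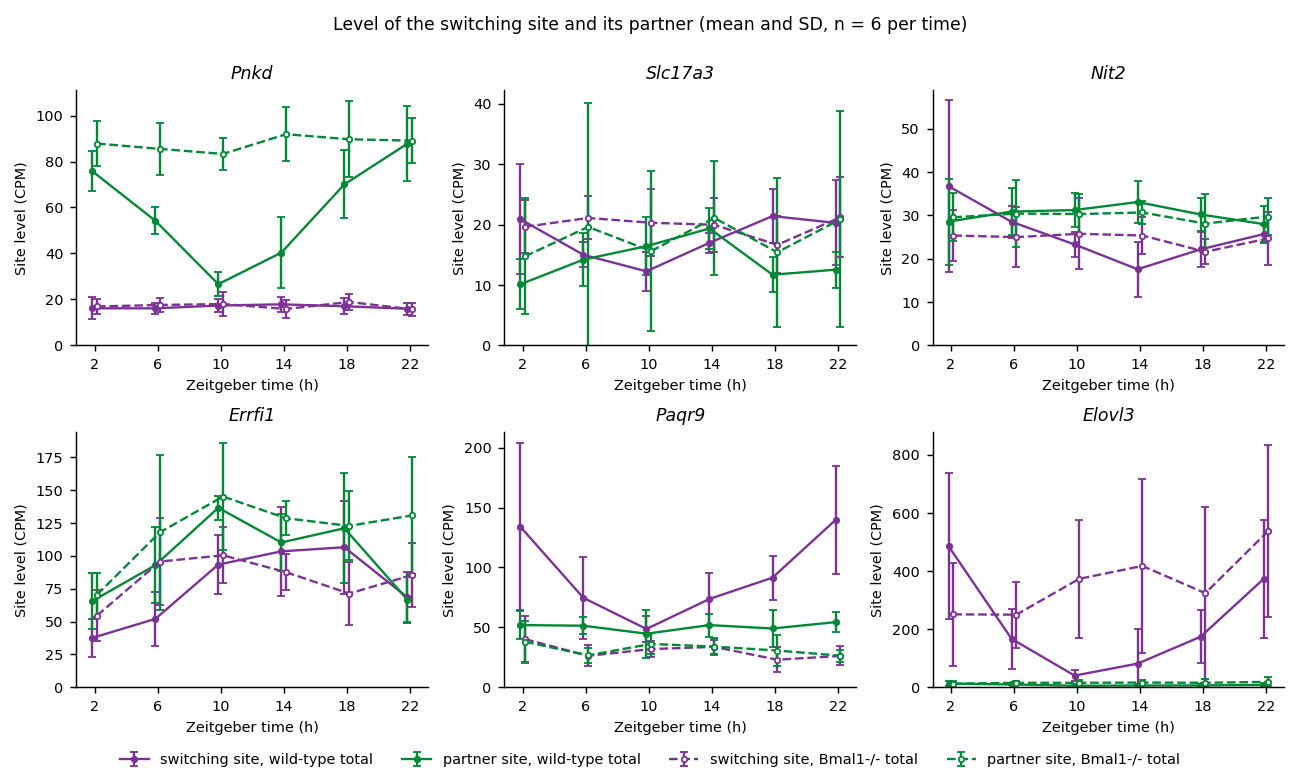
Level of the switching site and of its partner (CPM, y axis) against zeitgeber time (h, x axis) in wild-type and Bmal1-/- total RNA, as means with SD (n = 6). In Pnkd the partner falls to 26.7 CPM at ZT10 while the switching site stays between 16.0 and 17.9 CPM. In Paqr9 and Elovl3 the switching site changes more than the partner, which in Elovl3 rises 2.31-fold in wild-type total RNA.

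Elovl3 codes for an elongase of very long chain fatty acids, and its level is known to vary strongly over the day and between the sexes in mouse liver. Its switching site is chr19:46135192-46135321, 373 bp before the annotated end, and its partner is chr19:46134846-46134941. The site took 78.0%, 89.1% and 96.3% (lowest, median, highest) at ZT22 in wild-type total RNA and 63.7%, 71.6% and 79.0% at ZT10, with means of 88.3% ± 6.31 and 70.7% ± 5.43. The value of 96.3% is that of the library with Xist, which held only 27 counts at the sites of Elovl3 and enters the ZT22 mean. The highest ZT10 library lay just above the lowest ZT22 library, so the ranges overlapped by 1 library on each side. The level of the switching site rose 12.0-fold, from 40.4 CPM ± 18.1 at ZT10 to 486 CPM ± 252 at ZT2, while the partner rose 2.31-fold, from 5.56 to 12.8 CPM. The middle site, chr19:46134964-46135122, varied with them. Its fitted log2 peak-to-trough in level was 2.70 (6.49-fold), beside 3.41 (10.6-fold) at the switching site. The gene level moved with the sites, from 59.5 CPM ± 25.0 at ZT10 to 588 CPM ± 286 at ZT2. Without the ZT2 library that stood apart, the ZT2 means were 388 CPM ± 89.0 for the switching site and 476 CPM ± 90.5 for the gene (SD, n = 5). Usage of the Elovl3 switching site was lowest at ZT10, when the gene's level was lowest too, and the same held for the distal Pnkd partner.

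The Elovl3 gene level kept a rhythm in both other wild-type series. In nuclear RNA it ran from a median of 48.4 CPM at ZT10 (25.5 to 80.5) to 384 CPM at ZT2 (208 to 722), without overlap, and the fitted log2 peak-to-trough was 2.68 (adjusted p = 0.00783, edgeR quasi-likelihood test). In polysomal RNA the medians were 52.5 CPM at ZT10 (30.95 to 76.1) and 368 CPM at ZT2 (239 to 499), also without overlap, with a log2 peak-to-trough of 2.53 (adjusted p = 0.00848, edgeR quasi-likelihood test). The usage of its switching site was not called in either series: it varied from 64.4% at ZT10 to 81.4% at ZT18 in nuclear RNA (adjusted p = 1) and from 63.7% at ZT10 to 80.9% at ZT22 in polysomal RNA (adjusted p = 0.732, edgeR quasi-likelihood tests). Elovl3 was almost absent from the 3 wild-type libraries with Xist above 100 CPM, at 3.42 CPM in total, 1.49 in nuclear and 0 in polysomal RNA. The other libraries of those series had medians of 255, 185 and 175 CPM. In Bmal1-/- total RNA the library with Xist had 278 CPM, within the range of 1.07 to 1153 CPM of the others. At ZT18, total replicate 5, nuclear replicate 5 and polysomal replicate 1 had 13.3, 17.1 and 16.4 CPM of Elovl3 with 0 Xist, below the other 5 libraries of their group.

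Libraries labelled Bmal1-/- held more Elovl3 over the day than wild-type total RNA (449 against 270 CPM, log2 difference 0.99, SE 0.30, adjusted p = 0.00603, edgeR quasi-likelihood test), at 5 of 6 times. In replicates 4 to 6 alone the call was lost (log2 difference 0.04, adjusted p = 0.963, edgeR quasi-likelihood test). Its gene level was not rhythmic there (log2 peak-to-trough 0.64, adjusted p = 1, edgeR quasi-likelihood test), with wide spreads such as 1.07 to 966 CPM at ZT18. Switching site usage had time means of 78.7% to 84.1%, and along the wild-type peak its log2 peak-to-trough was 0.05 (95% interval -0.02 to 0.12). Polysomal RNA had a lower mean usage of the switching site than total RNA (73.4% ± 9.26, n = 35, against 79.7% ± 7.83, n = 36, log2 difference -0.11, adjusted p = 0.0016, edgeR quasi-likelihood test). That sign depended on the denominator: with the gene table's count in place of the summed sites it was 0.50. In polysomal RNA the sites of Elovl3 sum to 152% of its count in the gene table, against 97.3% to 98.0% in the other 3 series. The site at the annotated end, chr19:46135523-46135704, is outside the authors' filtered list and had a mean of 106 counts per wild-type total library. The switching site overlaps the end of Pitx3 on the opposite strand, and whether counting used strand is not given in the sources used here.

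Paqr9 belongs to the progestin and adipoQ receptor family of membrane proteins. Its switching site, chr9:95561988-95562059, lies 5963 bp before the annotated end, and its partner, chr9:95567794-95567940, lies 82 bp before it. In wild-type total RNA the early site took 29.0%, 42.5% and 71.3% (lowest, median, highest) at ZT2 and 19.3%, 30.9% and 39.5% at ZT10, so the ranges overlapped. The highest value is the ZT2 library that stood apart. Without it, the difference between the 2 times fell from 12.6 to 7.0 percentage points. The replicate sets differed too, with a mean usage over all times of 30.1% in replicates 1 to 3 and 43.9% in replicates 4 to 6. A neighbouring site, chr9:95561808-95561970, ends just before the switching site. It took 27.4% of the site counts in wild-type total RNA, and 0.591% in its lowest library. Its mean usage was lowest at ZT2, when that of the switching site was highest, but its time-point means spanned only 4.5 points. Without the ZT2 library that stood apart, the switching site was highest at ZT22. The level of the switching site rose 2.87-fold, from 48.7 CPM ± 10.8 at ZT10 to 140 CPM ± 44.9 at ZT22, and these groups did not overlap (33.2 to 62.6 against 81.0 to 196 CPM). The partner stayed between 44.8 and 54.4 CPM.

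The Paqr9 switching site was rhythmic in level in the other wild-type series, with a log2 peak-to-trough of 1.04 in nuclear RNA (peak ZT22.7, adjusted p = 0.00402) and 1.15 in polysomal RNA (peak ZT22.5, adjusted p = 0.00991, edgeR quasi-likelihood tests). The partner was not called in either (adjusted p = 0.637 and 0.298, edgeR quasi-likelihood tests). At gene level, nuclear values ran from a median of 176 CPM at ZT10 (127 to 246) to 384 CPM at ZT22 (326 to 415) without overlap (log2 peak-to-trough 0.87, adjusted p = 0.0199), and polysomal values from 245 CPM (159 to 458) to 513 CPM (334 to 705) with overlap (0.90, adjusted p = 0.0136, edgeR quasi-likelihood tests). Nuclear RNA used the early site more than total RNA (46.9% against 37.0%, log2 difference 0.35, adjusted p = 7.92e-06, edgeR quasi-likelihood test) and the partner less (15.4% against 21.5%, log2 difference -0.48, adjusted p = 1.71e-07, edgeR quasi-likelihood test), each at 6 of 6 times.

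Paqr9 was the 1 switching gene whose level was called lower in libraries labelled Bmal1-/-. It had 120 CPM there against 261 CPM in wild-type total RNA (log2 difference -1.19, SE 0.10, adjusted p = 2.07e-15, edgeR quasi-likelihood test) and was lower at 6 of 6 times. At ZT22 the Bmal1-/- libraries held 69.2, 97.0 and 134 CPM (lowest, median, highest) and the wild-type libraries 269, 337 and 418 CPM, without overlap. The early site fell from 37.0% to 27.6% of the site counts (log2 difference -0.42, adjusted p = 5.54e-05) while the partner rose from 21.5% to 29.3% (0.46, adjusted p = 3.72e-11) and the neighbouring site chr9:95566782-95566869 from 7.79% to 11.0% (0.49, adjusted p = 1.27e-08, edgeR quasi-likelihood tests). The early site chr9:95561808-95561970, just before the switching site, took 27.4% and 25.7% and was not called (adjusted p = 0.752, edgeR quasi-likelihood test). The share thus moved from the early switching site to the 2 late sites. The lower usage of the switching site rested on replicates 4 to 6: in replicates 1 to 3 alone its log2 difference was -0.10 (adjusted p = 0.653, edgeR quasi-likelihood test).

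Errfi1 codes for MIG6, a feedback inhibitor of the epidermal growth factor receptor, and is induced by growth factors and stress. Its switching site is chr4:150868297-150868426, 463 bp before the annotated end, and its partner, chr4:150868630-150868894, is at that end. The switching site took 15.9%, 23.1% and 28.4% (lowest, median, highest) at ZT2 in wild-type total RNA and 27.9%, 33.7% and 38.4% at ZT18. The 2 ranges overlapped by a narrow margin, and the means were 22.4% ± 4.78 and 34.0% ± 3.96. Both sites rose from ZT2, the switching site 2.83-fold with its highest mean of 107 CPM at ZT18, and the partner 2.08-fold with its highest mean of 137 CPM at ZT10. By ZT22 the partner was back at 66.7 CPM, level with its 65.6 CPM at ZT2, while the switching site was at 68.4 CPM against 37.6 CPM at ZT2. The upstream end therefore peaked later than the end at the annotated terminus.

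The level of the Errfi1 switching site was rhythmic in nuclear RNA (log2 peak-to-trough 1.40, peak ZT14.8, adjusted p = 0.000662) and in polysomal RNA (1.16, peak ZT15.1, adjusted p = 0.00995, edgeR quasi-likelihood tests). Its partner was called in polysomal RNA (0.98, peak ZT12.4, adjusted p = 0.046) and not in nuclear RNA (1.01, peak ZT12.7, adjusted p = 0.133, edgeR quasi-likelihood tests). Usage of the switching site was called in neither series, though its fitted peaks of ZT18.03 and ZT19.2 lay near the ZT17.5 of wild-type total RNA. In libraries labelled Bmal1-/- its highest usage came at ZT6, at 26.0%, 29.0% and 41.0% (lowest, median, highest), and its lowest at ZT18, at 15.4%, 24.2% and 26.3%, with overlap. Along the wild-type peak time the log2 peak-to-trough was -0.28 with a 95% interval of -0.47 to -0.08. The cosine test itself did not call this site in Bmal1-/- RNA (adjusted p = 1, edgeR quasi-likelihood test).

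Errfi1 also differed between the RNA fractions. In nuclear RNA the sites chr4:150857710-150857868 and chr4:150855633-150855703, 11021 and 13186 bp before the annotated end, took 42.9% ± 9.72 and 16.2% ± 7.11 of the site counts, against 14.8% ± 4.73 and 2.22% ± 0.703 in total RNA (SD, n = 36). In polysomal RNA they took 1.90% ± 1.45 and 0.868% ± 0.539. The log2 differences of nuclear from total RNA were 1.54 (SE 0.09) and 2.86 (SE 0.12), with adjusted p = 6.34e-25 and 9.82e-31 (edgeR quasi-likelihood tests). The first of them was lower in polysomal RNA by a log2 difference of -3.06 (adjusted p = 2.29e-23, edgeR quasi-likelihood test), and the second was too little used to be tested there. Summed over the 3 sites more than 5 kb before the end, usage was 46.0% to 76.7% in all nuclear libraries, 11.7% to 33.7% in total RNA and 1.34% to 20.02% in polysomal RNA, so nuclear libraries overlapped with neither. The partner at the annotated end moved the other way, with 13.5% in nuclear, 38.2% in total and 55.9% in polysomal RNA (log2 differences from total RNA -1.49 and 0.55, adjusted p = 2.33e-26 and 6.18e-15, edgeR quasi-likelihood tests). The long non-coding gene 1700045H11Rik overlaps the start of Errfi1 on the opposite strand. A further 30 sites of the Errfi1 span are outside the filtered list and held 27.0% of its site counts in wild-type total RNA, and in nuclear RNA the filtered sites summed to 169% of the gene table count.

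**Figure D3:**
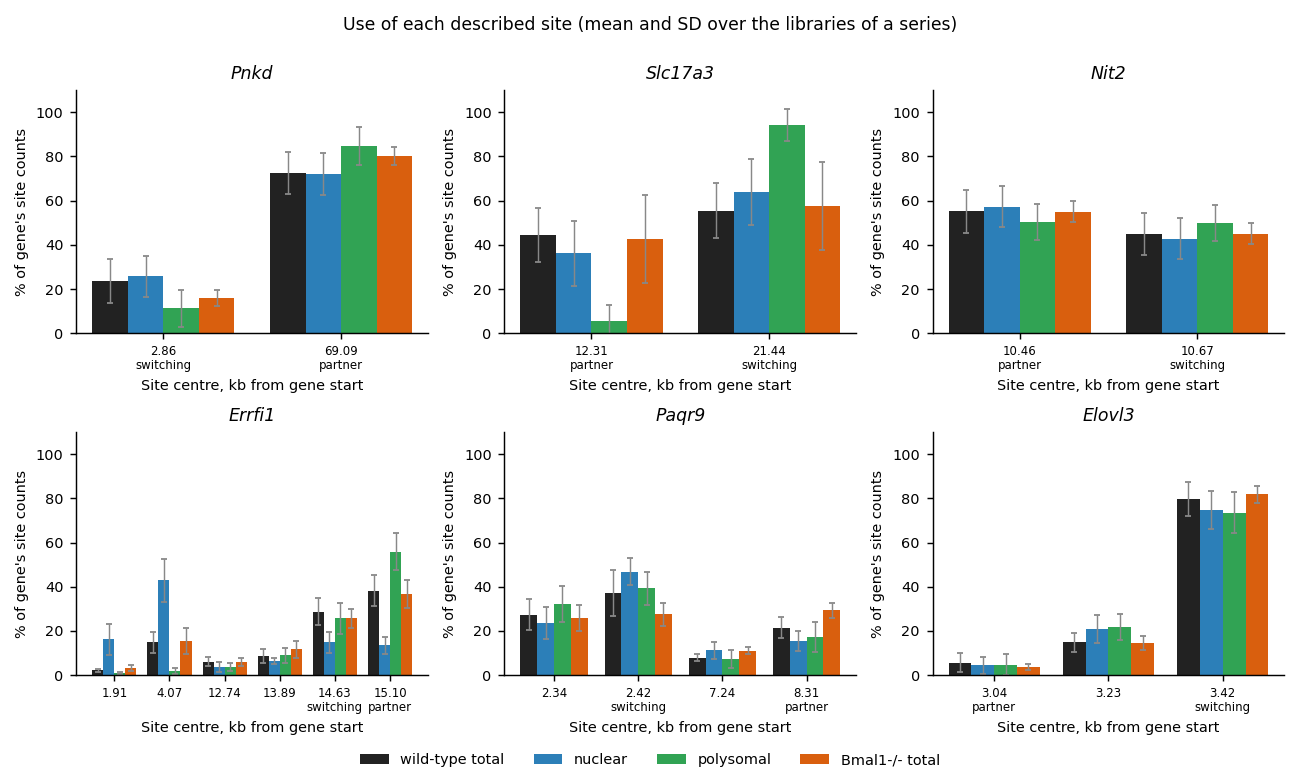
Usage of each of the 19 described sites (percent of the gene's site counts, y axis) by series, ordered along the gene by the distance of the site centre from the gene start (kb). Bars are means over the 36 libraries of a series with SD (35 for polysomal Elovl3). The early Errfi1 site takes 42.9% in nuclear and 1.90% in polysomal RNA, and the late Slc17a3 site takes 94.3% in polysomal RNA.

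Slc17a3 codes for a membrane transporter of organic anions such as urate. Its switching site, chr13:23858206-23858362, lies 2356 bp before the annotated end, and its partner, chr13:23849142-23849228, lies 11490 bp before it. The later site took 45.9%, 65.4% and 91.0% (lowest, median, highest) at ZT2 in wild-type total RNA and 35.3%, 42.2% and 50.8% at ZT10, with overlap. Its means were 65.6% ± 14.8 and 42.9% ± 6.13, and the highest value is again the ZT2 library that stood apart, without which the difference fell from 22.7 to 17.6 points. The 2 sites were out of step in level: the later site was highest at ZT18 (21.4 CPM ± 4.46) and the earlier one at ZT14 (19.4 CPM ± 3.41).

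Among the switching genes, Slc17a3 had the widest gap in usage between polysomal and total RNA. The later site took 94.3% ± 7.09 in polysomal RNA and 55.5% ± 12.4 in total RNA (SD, n = 36), and was higher at 6 of 6 times (log2 difference 0.78, SE 0.04, adjusted p = 7.1e-24, edgeR quasi-likelihood test). The earlier site fell from 44.5% to 5.74% (log2 difference -3.07, SE 0.24, adjusted p = 1.24e-17, edgeR quasi-likelihood test). Nuclear RNA lay between, with 63.9% at the later site (log2 difference 0.20 from total RNA, adjusted p = 0.00859, edgeR quasi-likelihood test), a call that was lost with the gene table count as denominator (0.05, adjusted p = 0.450). The gene level was lower in nuclear than in total RNA (25.1 against 32.4 CPM, log2 difference -0.46, adjusted p = 1.42e-09, edgeR quasi-likelihood test) and was rhythmic there (log2 peak-to-trough 0.95, peak ZT20.1, adjusted p = 2.06e-05, edgeR quasi-likelihood test). In nuclear RNA its medians ran from 14.6 CPM at ZT10 (13.3 to 27.0) to 31.4 CPM at ZT22 (24.2 to 50.3), which overlapped. Libraries labelled Bmal1-/- had usages of 50.2% to 61.1% over the day with wide spreads (22.6% to 84.1% at ZT10), and the replicate sets differed, with 46.7% in replicates 1 to 3 and 68.2% in replicates 4 to 6. Their daily mean of 57.5% did not differ past the threshold from wild-type total RNA (log2 difference 0.06, adjusted p = 0.811, edgeR quasi-likelihood test). Slc17a3 is the gene whose filtered sites cover it least: 33 further sites of its span held 47.3% of the wild-type total counts.

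Nit2 codes for omega-amidase, an enzyme of glutamine metabolism. Its sites lie side by side on the minus strand, the switching site chr16:57156663-57156836 at the gene's annotated end and the partner chr16:57156872-57157095 before it. The end site took 39.6%, 52.2% and 84.8% (lowest, median, highest) at ZT2 in wild-type total RNA and 24.8%, 36.8% and 39.9% at ZT14, overlapping by 1 library on each side. The means were 54.2% ± 16.1 and 33.9% ± 6.52, a difference of 20.3 points that fell to 14.2 points without the ZT2 library that stood apart. The end site varied 2.09-fold in level, from 17.6 CPM at ZT14 to 36.7 CPM at ZT2, and the partner 1.18-fold. Without that library the ZT2 mean of the end site was 28.8 CPM ± 4.38 (SD, n = 5), 1.64-fold above ZT14. Usage was lowest at ZT14 in nuclear and polysomal RNA too, at means of 34.7% and 40.5%, but was called in neither (adjusted p = 1 in both, edgeR quasi-likelihood tests). Along the wild-type peak its log2 peak-to-trough was 0.36 in nuclear RNA (95% interval 0.07 to 0.65), 0.35 in polysomal RNA (0.14 to 0.56) and 0.03 in Bmal1-/- RNA (-0.12 to 0.19). Bmal1-/- time means lay between 44.0% and 46.1%. Polysomal RNA used the end site more than total RNA (49.8% against 44.9%, log2 difference 0.15, adjusted p = 0.00712, edgeR quasi-likelihood test). The gene level was lower in nuclear RNA at 6 of 6 times (38.3 against 58.3 CPM, log2 difference -0.68, adjusted p = 4.13e-15, edgeR quasi-likelihood test). In Bmal1-/- libraries it missed the threshold (56.5 CPM, log2 difference -0.14, adjusted p = 0.0503, edgeR quasi-likelihood test).

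**Figure D4:**
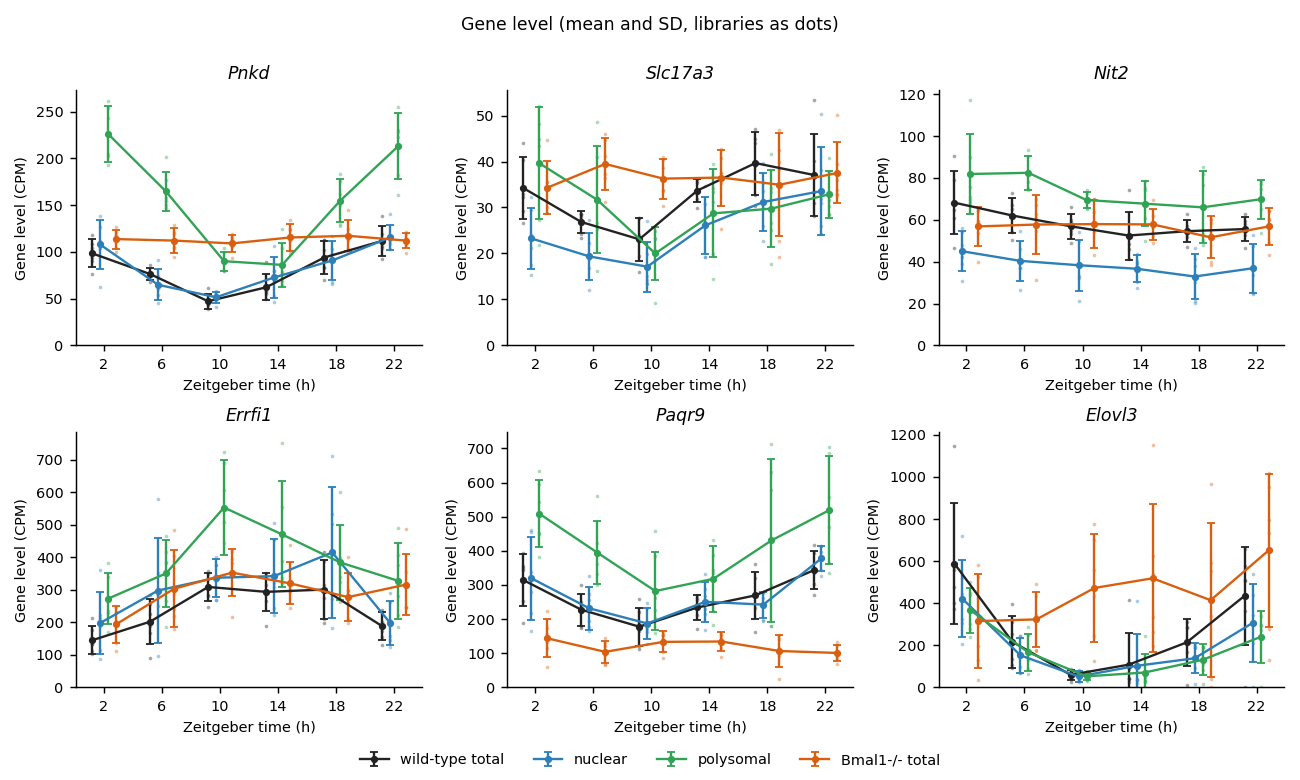
Gene level of each switching gene (CPM of the gene table, y axis) against zeitgeber time (h, x axis) in the 4 series. Lines join means with SD bars and dots are libraries (n = 6 per time). Bmal1-/- Pnkd stays at 109 to 117 CPM, Bmal1-/- Paqr9 at 101 to 144 CPM, and Elovl3 reaches 588 CPM at ZT2 in wild-type total RNA.

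Set against all features tested, the switching genes were called as follows, with all calls at an adjusted p under 0.05 by edgeR's quasi-likelihood test. The nuclear and polysomal counts may not be independent of the choice of the genes. Nuclear libraries resembled same-numbered total libraries. Polysomal libraries did not, but some stood out as total and nuclear libraries of another number did. At ZT14, Elovl3 stood far above its group in total replicate 4, nuclear replicate 4 and polysomal replicate 3 (413, 408 and 246 CPM). Whether these libraries share animals was not tested. In nuclear RNA a usage rhythm was called in 1 of the 17 tested sites of the 24, and in 0.0494% of all sites tested. In polysomal RNA it was called in 0 of 15 sites, and in 0.0282% of all sites tested. The median log2 peak-to-trough of usage was 0.34 in nuclear and 0.33 in polysomal RNA, beside 0.22 and 0.28 over all sites tested. Site level was rhythmic in 6 of 22 nuclear sites (background 3.49%) and 7 of 22 polysomal sites (background 3.88%). Gene level was rhythmic in 4 of 6 genes in nuclear RNA, where 5.99% of all genes were called, and in 4 of 6 in polysomal RNA, where 7.90% were. Both sets hold Pnkd, Paqr9 and Elovl3, joined by Slc17a3 in nuclear and by Errfi1 in polysomal RNA. Median log2 peak-to-trough of gene level was 0.94 in nuclear and 0.95 in polysomal RNA, beside 0.33 and 0.44 over all genes. With replicates 1 to 3 alone, 0 sites and 1 gene were called in polysomal RNA and 2 genes in nuclear RNA, and with replicates 4 to 6 alone 3 sites were called in nuclear RNA.

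In libraries labelled Bmal1-/- no rhythm was called in any switching gene. A usage rhythm was called in 0 of 17 sites, as in 0% of all sites, of which 270 of 13464 had an unadjusted p under 0.05. Site level was called in 0 of 23 sites, as in 0% of all sites, of which 640 of 20191 had an unadjusted p under 0.05. Gene level was called in 0 of 6 genes, against 0.00825% of all genes, of which 491 of 12126 had an unadjusted p under 0.05. DESeq2 called 0 of the switching genes' sites and genes as well. Their median log2 peak-to-trough of gene level was 0.20, beside 0.19 over all genes. The count in wild-type libraries cannot be set against this as a test, since wild-type total RNA chose the genes, and the difference between the rhythms of the 2 genotypes was not tested.

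**Figure D5:**
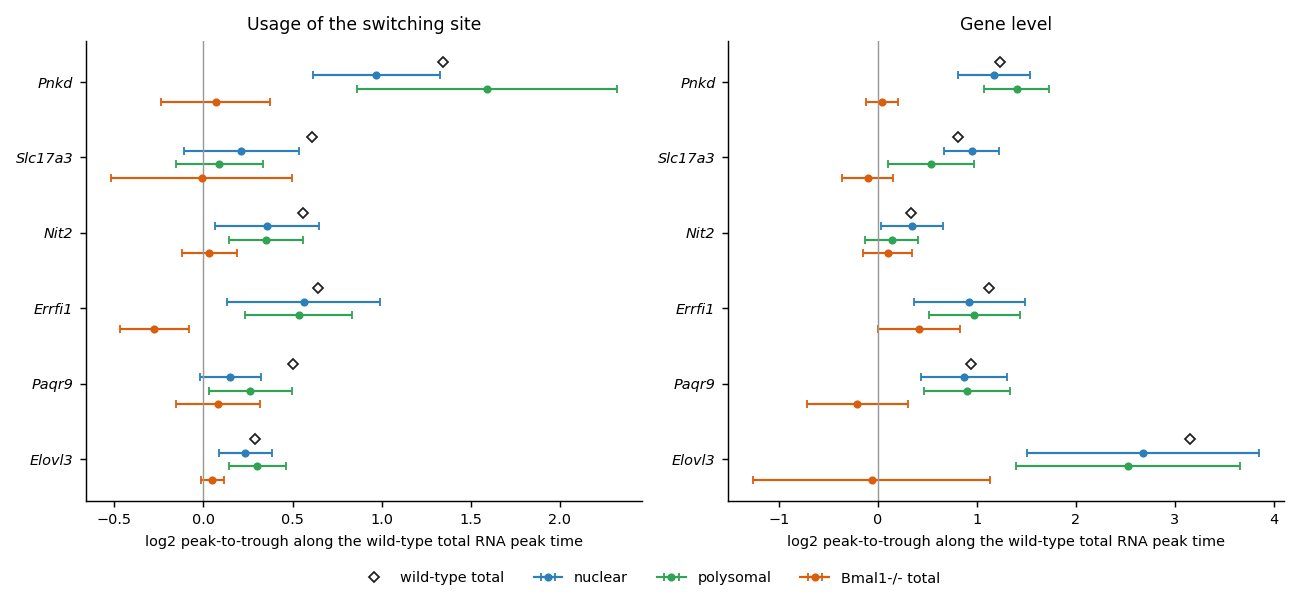
Log2 peak-to-trough along the wild-type total RNA peak time (x axis) for the usage of the switching site and for the gene level of each gene. Points are estimates with 95% intervals, and open diamonds are wild-type total RNA, which chose the genes and has no interval. Bmal1-/- intervals span 0 for usage in 5 genes and for gene level in 6, and the Errfi1 usage interval lies below 0. The Errfi1 gene level interval only just spans 0 (-0.0017 to 0.83).

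Differences averaged over the day were common in all features, and the 3 series share the wild-type total libraries as their reference. Mean usage differed between nuclear and total RNA in 12 of 17 sites (6 higher and 6 lower, background 78.7%) and between polysomal and total RNA in 12 of 16 (5 higher and 7 lower, background 70.5%), shares near those of all sites. Gene level differed in 3 of 6 genes in nuclear RNA (background 83.8%), with Errfi1 higher and Slc17a3 and Nit2 lower. It differed in 5 of 6 in polysomal RNA (background 76.0%), with Pnkd, Nit2, Errfi1 and Paqr9 higher and Elovl3 lower. For Elovl3 the gene table count underlies the call, and its polysomal sites sum to 152% of that count, against 98.0% in total RNA. Mean levels of its switching site were 201 CPM in polysomal and 221 CPM in total RNA, beside 171 and 270 CPM for the gene. The difference in site level was not tested. The Elovl3 call was lost without the ZT2 library that stood apart (adjusted p = 0.0557, edgeR quasi-likelihood test). Between Bmal1-/- and wild-type total RNA, mean usage differed in 7 of 17 sites, against a background of 8.81%. The 3 switching sites called there were all lower, in Pnkd, Paqr9 and Errfi1, and the 4 other sites were all higher. This count is a description, since the wild-type mean over the day includes the swing that chose the genes. Sites of a gene also share a total, so a lower switching site goes with higher usage of others. The Errfi1 call was lost without the Bmal1-/- library with Xist (adjusted p = 0.0503, edgeR quasi-likelihood test). Mean gene level differed in 4 of 6 genes (background 44.1%), with Pnkd, Errfi1 and Elovl3 higher and Paqr9 lower. The median log2 difference of the 6 genes was 0.16, beside 0.01 over all genes.

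The usages of the switching sites did not all move together. Over the 36 wild-type total libraries Pearson's r was -0.77 between Pnkd and Elovl3 and 0.65 between Slc17a3 and Paqr9, and Errfi1 had r of 0.02 with Pnkd and -0.01 with Slc17a3 and Paqr9. These libraries share time, depth and preparation, so r is a description. Among up to 13095 sites of other genes, those most like Pnkd in usage over the 36 libraries were in Slc16a7 (r = 0.68) and Abtb2 (0.65), and those most like Elovl3 were the Pnkd partner (0.77) and a site in Ppdpf (0.71). Nit2 was most like Cpn2 (0.84) and Cpox (0.82), Paqr9 like Kng2 (0.90) and Tmem234 (0.88), Slc17a3 like Cps1 (0.75) and Tcf12 (0.70), and Errfi1 like Ccny (0.73) and Ipo7 (0.72).

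Genes of the cleavage and polyadenylation machinery were examined in wild-type total RNA from a list of 20 that was not picked by the rule. A daily rhythm of gene level was called in 2 of 20, where 18.9% of all genes were called (edgeR quasi-likelihood test). Cpsf6, a subunit of CFI, had a log2 peak-to-trough of 0.40 with a peak at ZT14.4 (adjusted p = 0.0013), and Cstf2, a subunit of CSTF, had 0.41 with a peak at ZT22.6 (adjusted p = 0.039, edgeR quasi-likelihood tests). The median over the list was 0.27, beside 0.32 over all genes. The other 18 did not pass, among them the cleavage nuclease gene Cpsf3 (0.09, adjusted p = 0.845) and the poly(A) polymerase gene Papola (0.06, adjusted p = 0.823, edgeR quasi-likelihood tests). Without the Xist library 1 of the 20 was called, and in replicates 4 to 6 none.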

How the data were processed

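The authors deposited raw counts per gene and per polyadenylation site for 144 mouse liver libraries, with an unfiltered list of 86780 sites and a filtered list of 29199. The submitters' processing notes name STAR 2.4.2a, HOMER and edgeR, and the builds mm10 and GRCm38.p5. How sites were merged and filtered, and whether counting used strand, is not given in the sources used here. The deposited counts were used as they are, and CPM is the count scaled to the library's gene table total. Depth ran from 1662449 to 14281894 counts per library.

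Groups, times and replicate numbers came from the sample titles. Usage was fitted on site counts with the log of the gene's summed filtered sites plus 0.5 as offset, for sites with at least 5% of a gene whose sites held a mean of at least 50 counts. Site and gene levels were fitted with TMM normalization for features with a mean of at least 10 counts. Rhythms were tested with a 24 h cosine and sine (2 degrees of freedom) within a series, and differences as the mean over the 6 times of a series against wild-type total RNA. All tests were edgeR 4.0.16 quasi-likelihood tests in R 4.3.3 over all features, adjusted by Benjamini-Hochberg. The tests of rhythms and of gene level differences were also run on simulated counts of independent libraries with a fixed dispersion. Usage differences were not simulated. For rhythms, log2 peak-to-trough is the fitted height of the cosine, which is never negative. The alternatives were DESeq2 1.42.0, median-ratio size factors, lower count filters, the gene table count as denominator, replicate blocks, each set of 3 replicates, and leaving out libraries that stood apart.

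The members and lists were chosen with earlier results of these data known. The rule for named genes took the 6 members, their described sites, the 2 sites most like each switching site, 20 polyadenylation factors and control genes. Marker lists were read for hepatocytes, Kupffer cells, sinusoidal endothelium, stellate cells, cholangiocytes, blood, adipocytes, kidney tubule and airway. Summed median levels in wild-type total RNA were 181 CPM for Kupffer cells, 174 for endothelium, 263 for stellate cells, 1215 for blood, 1.19 for adipocytes and 0 for kidney tubule and airway. Of 360 pairs of libraries within groups 0 were identical, and their counts differed by more than sampling noise (lowest chi-square per degree of freedom 4.03). Coordinates of genes and promoters are RefSeq GRCm38.p6, and no genome sequence was used here. Promoters were matched by symbol for 4 of the 6 genes.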

Additional observations from a re-analysis of the deposited data

Results flagged for a closer look

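Among 288 groups of 6 libraries, covering usage of the switching site and gene level of the 6 genes, 20 held a library far from the other 5. Chance flags about 1 in 20 groups.

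For usage of the Pnkd switching site these were nuclear ZT6 replicate 2 (40.0%, others 23.4% to 28.8%), nuclear ZT18 replicate 4 (30.7%, others 16.0% to 19.9%), Bmal1-/- ZT10 replicate 2 (8.77%, others 16.3% to 20.1%) and Bmal1-/- ZT22 replicate 5 (21.5%, others 11.4% to 14.9%). In Slc17a3 it was polysomal ZT18 replicate 5 (89.2%, others 96.9% to 100%). In Nit2 they were wild-type total ZT2 replicate 4 (84.8%, others 39.6% to 53.7%), wild-type total ZT6 replicate 5 (42.5%, others 47.7% to 50.8%), polysomal ZT14 replicate 3 (61.9%, others 28.8% to 41.2%) and Bmal1-/- ZT2 replicate 2 (34.4%, others 46.1% to 53.0%). Errfi1 had polysomal ZT2 replicate 3 (39.4%, others 15.1% to 22.9%). Paqr9 and Elovl3 shared 1 library, Bmal1-/- ZT6 replicate 1, with 42.6% (others 21.0% to 27.6%) and 88.6% (others 75.4% to 78.5%).

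At gene level, Pnkd in nuclear ZT22 replicate 3 had 141 CPM (others 103 to 115), Nit2 in wild-type total ZT14 replicate 4 had 74.3 CPM (others 41.4 to 52.9) and Errfi1 in Bmal1-/- ZT10 replicate 3 had 216 CPM (others 347 to 421). Elovl3 accounted for the other 5. It had 1149 CPM in wild-type total ZT2 replicate 4 (others 372 to 573), 413 CPM in wild-type total ZT14 replicate 4 (others 24.2 to 85.0), 408 CPM in nuclear ZT14 replicate 4 (others 21.3 to 73.3) and 246 CPM in polysomal ZT14 replicate 3 (others 27.7 to 47.2). In polysomal ZT22 replicate 1, the library with Xist above 100 CPM, it had 0 CPM (others 237 to 341).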

How the results depend on the processing

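Of 150 alternative values for counts of calls, 135 stayed within the limits set, and most of the others came from sets of 3 replicates. Nuclear usage rhythms fell from 1 called site to 0 in replicates 1 to 3, in replicates 4 to 6, with the lower count filter, and without the wild-type libraries with Xist above 100 CPM, an alternative chosen after seeing the data. Nuclear site rhythms fell from 6 to 3 in replicates 4 to 6, and nuclear gene rhythms from 4 to 2 in replicates 1 to 3. Polysomal site rhythms fell from 7 to 0 and gene rhythms from 4 to 1 in replicates 1 to 3. Polysomal usage rhythms rose from 0 to 1, which was Pnkd, with DESeq2 and without the Xist libraries. Called polyadenylation factors fell from 2 to 1 in replicates 1 to 3, with the lower count filter and without the Xist library, and to 0 in replicates 4 to 6.

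Changes of sign were as follows, all but 1 in differences that did not pass the threshold. The Pnkd level in nuclear against total RNA (log2 -0.0016) became 0.14 in replicates 1 to 3, 0.015 with DESeq2 and with median-ratio size factors, 0.030 without the ZT2 library that stood apart and 0.044 without the Xist libraries. For Paqr9 it became -0.094 in replicates 4 to 6 and -0.11 with the lower count filter. Usage of the Elovl3 switching site in polysomal against total RNA went from -0.11 to 0.50 (adjusted p = 3.90e-15, edgeR quasi-likelihood test) with the gene table count as denominator, whose count its polysomal sites exceed. Paqr9 usage in polysomal RNA became -0.087 in replicates 4 to 6. In Bmal1-/- RNA, Nit2 usage became -0.12 in replicates 1 to 3, Slc17a3 usage -0.15 in replicates 1 to 3 and -0.0071 with the gene table count, and the Slc17a3 level -0.0033 in replicates 4 to 6. Except where a denominator or fewer libraries were used, the cause was not tested.

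Replicate numbers are shared between groups, but the pairing check did not hold for all pairs: deviations of same-numbered libraries of nuclear and total RNA correlated at a mean of 0.35 (34 of 36 pairs over 0.1, and 32 of 36 best with their own number), of polysomal and total RNA at -0.13 and of Bmal1-/- and wild-type total RNA at 0.08. For polysomal RNA 0 of 36 were best with their own number, and its numbers may run in another order. With a replicate block, polysomal usage rhythms rose from 0 to 1, and rhythms called over all genes rose from 669 to 996 in nuclear and from 845 to 1505 in polysomal RNA. The other counts stayed within 1.5 times, such as 8 nuclear sites. The Paqr9 level in nuclear RNA became -0.013 with the block and -0.022 with a block within time points, which also took Slc17a3 usage in Bmal1-/- RNA to -0.00047.

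Over all features and alternatives, calls ran from 0 to 9 for nuclear and 0 to 15 for polysomal usage rhythms, 113 to 756 and 48 to 1270 for site rhythms, 174 to 996 and 115 to 1505 for gene rhythms, 0 to 10 for Bmal1-/- gene rhythms and 744 to 1939 for Bmal1-/- usage differences. Nuclear and polysomal usage differences reached 16490 and 14813 with the lower filter, and gene rhythms in wild-type total RNA ran from 621 to 3041. Depth limits the partner sites of Slc17a3, with a mean of 34.7 counts per nuclear and 6.5 per polysomal library, and of Elovl3, with 24.7 per nuclear library. It also limits the usage of Elovl3 in single libraries. The lowest summed site counts were 27 at wild-type total ZT22, 6 at nuclear ZT22 and 10 at Bmal1-/- ZT18.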

Other observations

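Sites outside the authors' filtered list also carried counts of the switching genes. In Errfi1 the site chr4:150862724-150862951 had means of 338 counts per library in wild-type total RNA, 212 in nuclear, 45.1 in polysomal and 457 in Bmal1-/- RNA. In wild-type total RNA that exceeds the mean of 314 counts of chr4:150857710-150857868, the early filtered site. At the annotated end of Slc17a3 the nearest site, chr13:23860712-23860723, had 0.556 counts per library in wild-type total RNA and 0.667 in polysomal RNA, against 137 and 118 at the switching site 2356 bp before that end. In Pnkd, Nit2, Errfi1 and Paqr9 the sites at the annotated end were in the filtered list, with means of 465, 197, 773 and 30.5 counts in wild-type total RNA.

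Of the sites that are neither switching nor partner, chr4:150867568-150867689 in Errfi1 took 8.59% in wild-type total RNA, 6.38% in nuclear, 8.98% in polysomal and 11.6% in Bmal1-/- RNA. It was called lower in nuclear RNA (log2 difference -0.45, adjusted p = 0.000526) and higher in Bmal1-/- RNA (0.42, adjusted p = 0.0299, edgeR quasi-likelihood tests). The middle Elovl3 site, chr19:46134964-46135122, took 14.8%, 21.0%, 21.8% and 14.6%. It was called higher in nuclear RNA (log2 difference 0.49, adjusted p = 6.5e-07) and in polysomal RNA (0.54, adjusted p = 4.21e-08, edgeR quasi-likelihood tests), 2 comparisons that share the wild-type total libraries.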
